A study of Mus musculus with 10 samples.

Results

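The 34 immediate early and dissociation response genes described here were picked by name from the 24033 gene names used in each of 10 RNA-seq libraries of mouse microglia. All 34 passed a filter of at least 0.5 RPKM (reads scaled to gene length and library total) in at least 3 libraries, as did 13621 genes in total. Of these, 26 were among the 1000 most abundant genes. Their median spread between libraries of the same Trem2 genotype was wider than that of the 1000 most abundant genes. The test for a difference between genotypes was passed by 0 of 34. Over all 13621 genes it was passed by 1, Trem2, in knockout against wild type and in knockout against heterozygous libraries. In heterozygous against wild-type libraries it was passed by 0.

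The series asks whether losing 1 or both copies of Trem2, which encodes a lipid-sensing receptor of microglia, alters these cells. The groups are 3 knockout libraries (TREM2-/-, KO; 1 female, 2 male), 3 heterozygous libraries (TREM2+/-, Het; 2 female, 1 male) and 4 wild-type libraries (TREM2+/+, WT; 2 female, 2 male). All mice were C57BL/6 and 3-5 months old, with no injury or other treatment given in the labels. Magnetic beads against CD11b were used to take the cells, and monocytes, neutrophils and border macrophages carry that surface protein too. The labels tell neither how the mutant allele was made nor whether a library was 1 mouse or several pooled, so the p-values reflect library-to-library spread, which may be partly technical. The time and temperature of tissue dissociation and the day of isolation are also not in the labels. Libraries are named by genotype and label number: KO 6, 9 and 12, Het 5, 8 and 11, and WT 1, 4, 7 and 10.

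Immediate early genes are transcribed within minutes of a stimulus without new protein synthesis, because the factors that switch them on are already present and are activated by phosphorylation. MAP kinases act through ternary complex factors and serum response factor, and calcium or cAMP act through CREB at the cAMP response element (CRE). Many of the products are themselves transcription factors, and others, such as MAP kinase phosphatases and mRNA decay factors, shut the response down. In brain tissue the same genes, together with heat shock genes, are known to be induced while cells are dissociated and sorted, so their RNA can be made after the animal's death.

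Promoter sequences of 5 members are shown because they carry the elements through which the early genes and the heat shock genes are known to be switched on. Each is the 150 bases just upstream of the annotated start, on the gene's own strand, from RefSeq on GRCm38.p6. Fos lies at chr12:85473740-85473889 (plus strand), Fosb at chr7:19310046-19310195 (minus), Nr4a1 at chr15:101266696-101266845 (plus), Hspa1a at chr17:34972157-34972306 (minus) and Hspa1b at chr17:34959239-34959388 (minus). Capitals mark the CRE core TGACG, read on either strand, in Fos, Fosb and Nr4a1, and the heat shock motif GAANNTTC in Hspa1a and Hspa1b.
Fos: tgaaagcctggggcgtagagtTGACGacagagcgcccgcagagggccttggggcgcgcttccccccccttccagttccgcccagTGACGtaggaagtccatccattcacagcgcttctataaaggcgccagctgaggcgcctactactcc
Fosb: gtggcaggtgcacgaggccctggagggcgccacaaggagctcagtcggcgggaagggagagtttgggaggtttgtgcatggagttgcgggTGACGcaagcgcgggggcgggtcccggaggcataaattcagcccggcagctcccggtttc
Nr4a1: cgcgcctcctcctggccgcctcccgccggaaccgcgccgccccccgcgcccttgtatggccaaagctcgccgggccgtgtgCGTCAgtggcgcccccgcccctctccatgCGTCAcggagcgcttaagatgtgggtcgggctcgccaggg
Hspa1a: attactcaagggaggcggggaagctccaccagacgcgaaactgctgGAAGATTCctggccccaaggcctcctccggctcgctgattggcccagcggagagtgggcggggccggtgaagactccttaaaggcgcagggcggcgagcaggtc
Hspa1b: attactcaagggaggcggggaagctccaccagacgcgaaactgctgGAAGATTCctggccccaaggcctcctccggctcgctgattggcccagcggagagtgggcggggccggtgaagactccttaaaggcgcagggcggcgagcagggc
The CRE core began 129 and 66 bases upstream of the start in Fos and 60 bases upstream in Fosb, and Nr4a1 had it at 69 and 40 bases. The heat shock motif began 104 bases upstream in both Hspa1a and Hspa1b, whose printed stretches are identical at 149 of 150 positions.

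Promoter windows of 300 bases (250 before the start and 50 after it) were matched for 30 of 34 members. The remaining members are Egr1, Egr3, Ier2 and Zfp36l2. The CRE core TGACG, searched on both strands and chosen after the sequences were seen, was in 17 of the 30 windows (56.7%), against 23.0% of the windows of 27025 gene symbols. The full palindrome TGACGTCA, which contains the core, was in 3 of the 30 (10.0%; Dusp1, Btg2 and Rcan1), against 2.03% of all windows. GAANNTTC was in 6 of the 30 (20%; Fosl2, Jun, Sgk1, Rcan1, Hspa1a and Hspa1b), against 9.04% of all. It was not in the window of Dnajb1, the remaining heat shock member. The AP-1 motif TGANTCA was in 2 (6.67%; Zfp36l1 and Rcan1), against 8.97%. The CArG box, the serum response element's core, was in 3 members (10.0%; Egr2, Dusp5 and Zfp36), against 1.81% of all windows. These are matches of letters in a short window, given as a description.

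Recovered reads ran from 17.61 M to 45.03 M per library (M, megareads). KO 9, KO 12, Het 11 and WT 10 had more than 30 M, and the other 6 libraries fewer. Trem2 followed the labels: it averaged 24.5 ± 3.52 RPKM in KO and 93.9 ± 9.98 RPKM in Het (SD, n = 3 each), against 191 ± 31.1 RPKM in WT (n = 4; limma adjusted p = 5.45e-06 for KO minus WT and 0.238 for Het minus WT). The 12 microglia markers were all detected and summed to 10825 to 12247 RPKM in KO, 10023 to 11758 in Het and 10519 to 12253 in WT. KO 6 and Het 8 stood apart in markers of other cells. Of 12 neutrophil markers, 10 passed the filter, none was at 0 in every library, and their sum was 2303 RPKM in KO 6, against 372 and 382 in the other KO libraries, 144 to 358 in Het and 104 to 224 in WT. Of 10 monocyte markers, 8 passed the filter, none was at 0 in every library, and their sum was 163 RPKM in KO 6, against 64.0 and 65.9 in the other KO libraries, 51.1 to 63.7 in Het and 49.2 to 66.5 in WT. The 5 choroid plexus markers all passed and summed to 2070 RPKM in Het 8, against 1304 and 1687 in the other Het libraries, 1155 to 1285 in KO and 779 to 1316 in WT.

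Most of the early response genes were abundant, and a few were not. The median of their mean levels over the 10 libraries was 166 RPKM, against 6.18 RPKM over all genes tested. Of the 34, 12 were among the 100 most abundant genes and 26 among the 1000 most abundant. At least 100 RPKM on average was reached by 21 of them, out of 408 genes in all. RPKM is scaled by gene length, so these levels can be compared roughly between genes. The RNA was amplified and the authors' gene annotation is not known, so the ranks are approximate.

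Zfp36, which encodes tristetraprolin, a factor that destabilizes cytokine mRNAs, was the third most abundant gene of all. It had 3519, 4320 and 5541 RPKM in KO 6, 9 and 12, 5137, 5555 and 5204 RPKM in Het 5, 8 and 11, and 4177, 4343, 5133 and 4675 RPKM in WT 1, 4, 7 and 10. KO held the lowest value and Het 8 the highest, and the 3 Het libraries lay just above the highest WT library. Egr1, a zinc finger factor induced by growth factors and synaptic activity, ranked 8 with 1879, 2228 and 3220 RPKM in KO, 2802, 3413 and 2596 RPKM in Het, and 2969, 2217, 2501 and 3246 RPKM in WT, in the same order of libraries, which is kept below. The genotypes overlapped. Dusp1, a phosphatase that inactivates p38 and JNK, ranked 13 and averaged 1592 ± 251 RPKM in KO, 1929 ± 448 in Het and 1836 ± 126 in WT.

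Rhob, a small GTPase of endosomes, had 1298, 1271 and 1556 RPKM in KO, 1298, 1410 and 1355 RPKM in Het, and 1130, 1682, 1355 and 1340 RPKM in WT. WT held both the lowest and the highest of these values. Jun, the AP-1 subunit with the highest level, had 1085, 1220 and 1409 RPKM in KO, 1304, 1432 and 986 RPKM in Het, and 1173, 1116, 1178 and 1175 RPKM in WT. The 4 WT libraries lay inside the ranges of KO and Het. Atf3, a stress-induced bZIP factor, averaged 1206 ± 75.6 RPKM in KO, 1224 ± 171 in Het and 1187 ± 114 in WT.

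Hspa1a, an inducible HSP70 chaperone and the most abundant heat shock member, had 726, 751 and 609 RPKM in KO, 830, 776 and 484 RPKM in Het, and 677, 652, 653 and 608 RPKM in WT. Het held both extremes. Its neighbour Hspa1b, which encodes a near-identical chaperone, averaged 272 ± 36.9 RPKM in KO, 257 ± 71.1 in Het and 243 ± 9.41 in WT. Of the 50-base windows of the annotated transcripts, 58.8% of those of Hspa1a also occur in Hspa1b, so how reads were split between the copies is uncertain. Dnajb1, an HSP40 co-chaperone, averaged 175 ± 26.0 RPKM in KO, 196 ± 72.2 in Het and 183 ± 21.9 in WT.

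The lowest levels were those of Dusp5, a nuclear phosphatase of ERK (mean 2.75 RPKM), and Nr4a2, an orphan nuclear receptor (9.11 RPKM). The fewest reads of any member in any library were 37, for Dusp5. Fos, the founding AP-1 subunit, averaged 422 ± 95.5 RPKM in KO, 454 ± 90.4 in Het and 417 ± 104 in WT.

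Among the other transcription factors, Junb, an AP-1 subunit, averaged 141 ± 39.6 RPKM in KO, 173 ± 15.4 in Het and 134 ± 24.2 in WT, and Fosl2, another AP-1 subunit, 19.7 ± 4.30 RPKM in KO, 26.0 ± 8.32 in Het and 25.2 ± 5.68 in WT. Egr2, a zinc finger factor, averaged 47.2 ± 14.9 RPKM in KO, 50.5 ± 14.6 in Het and 52.3 ± 11.6 in WT. Of the Krüppel-like factors, Klf6 was highest, at 744 ± 61.1 RPKM in KO, 745 ± 142 in Het and 724 ± 55.1 in WT. Klf2 and Klf4, which restrain inflammatory activation of endothelial and myeloid cells, were both lower than Klf6 in every genotype. Klf2 averaged 221 ± 5.79 RPKM in KO, 219 ± 64.1 in Het and 207 ± 16.5 in WT. Klf4 averaged 102 ± 32.9 RPKM in KO, 115 ± 31.3 in Het and 95.9 ± 16.3 in WT. Nr4a3, the third orphan nuclear receptor of its family, averaged 13.4 ± 2.05 RPKM in KO, 16.4 ± 5.75 in Het and 15.8 ± 2.33 in WT. For each of these 7 genes the genotype means differed by less than the SD of at least 1 of the genotypes.

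Of the members outside transcription, Btg2 averaged 499 ± 53.8 RPKM in KO, 504 ± 0.981 in Het and 486 ± 33.2 in WT. Zfp36l1, a relative of Zfp36, averaged 232 ± 74.4 RPKM in KO, 220 ± 9.90 in Het and 193 ± 30.9 in WT. Ier2 and Ier5 encode related nuclear proteins, whereas Ier3 is known as a regulator of cell survival. Ier5 averaged 412 ± 71.4 RPKM in KO, 450 ± 15.7 in Het and 386 ± 87.1 in WT. Ier3 averaged 128 ± 18.1 RPKM in KO, 153 ± 23.6 in Het and 141 ± 27.4 in WT. Ier2 averaged 50.2 ± 12.7 RPKM in KO, 54.2 ± 9.20 in Het and 49.9 ± 11.0 in WT. In all 5 of these genes the ranges of the 3 genotypes overlapped.

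**Figure D1:**
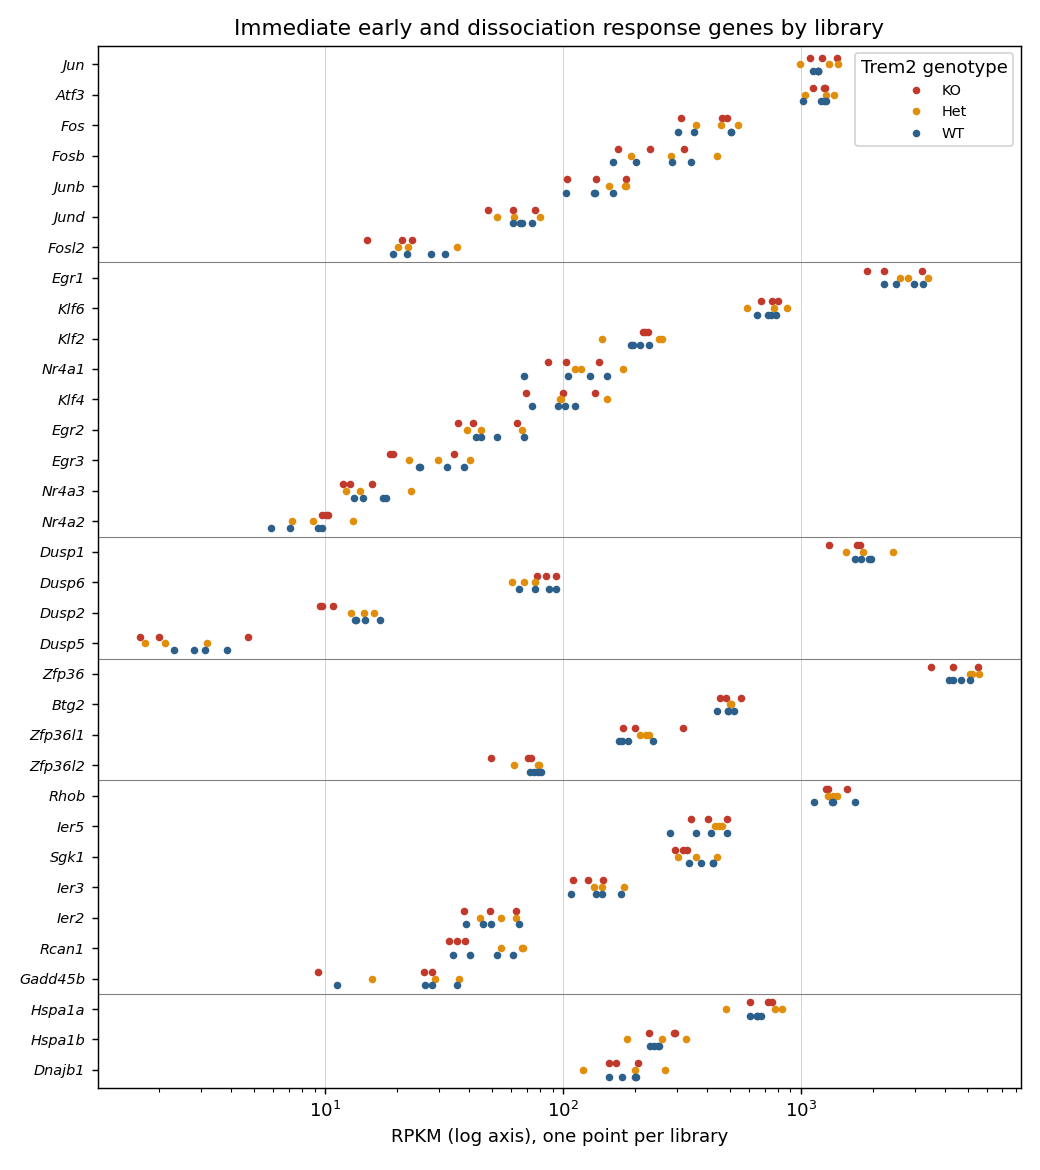
RPKM of each of the 34 genes on a log axis, 1 point per library, coloured by genotype (KO, Het, WT) and grouped by role. Levels run from about 2 RPKM for Dusp5 to 5555 RPKM for Zfp36 in Het 8, and for most genes the points of the 3 genotypes lie over one another.

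Spread between libraries of one genotype was measured as the residual SD of log2(RPKM + 0.5) after genotype and sex were fitted. Its median was 0.28 over the 34 members, against 0.23 over all genes tested and 0.15 over the 1000 most abundant genes. Of the members, 22 were above the median of all genes and 10 were at or above the upper quartile of all genes (0.34). Spread differed by role: the median was 0.33 for the zinc finger factors and nuclear receptors, 0.31 for the AP-1 subunits and 0.27 for the heat shock genes. It was 0.26 for the other early response genes, 0.16 for the RNA decay factors and 0.14 for the MAP kinase phosphatases. Btg2, an antiproliferative cofactor of mRNA deadenylation, had the smallest value (0.09), and Gadd45b the largest (0.78).

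Gadd45b, a stress sensor that binds the MAP kinase kinase kinase MEKK4, had 9.33, 26.0 and 28.0 RPKM in KO, 15.7, 28.8 and 36.3 RPKM in Het, and 28.1, 11.2, 26.2 and 35.6 RPKM in WT. Each genotype had 1 library well below the others. Fosb, an AP-1 subunit (residual SD 0.55), had 170, 232 and 321 RPKM in KO, 284, 442 and 192 RPKM in Het, and 285, 162, 201 and 345 RPKM in WT. Het 8 was highest and WT 4 lowest. Nr4a1, an orphan nuclear receptor (0.46), had 86.3, 103 and 141 RPKM in KO, 112, 178 and 118 RPKM in Het, and 129, 68.6, 105 and 152 RPKM in WT. The same libraries were at the ends. Egr3, a zinc finger factor (0.43), had 19.3, 18.7 and 34.7 RPKM in KO, 29.7, 40.6 and 22.5 RPKM in Het, and 32.4, 24.7, 24.9 and 38.1 RPKM in WT. Dusp5 (0.42) had 1.66, 2.0 and 4.74 RPKM in KO, 2.11, 3.19 and 1.75 RPKM in Het, and 2.81, 2.32, 3.85 and 3.13 RPKM in WT. For Dusp5, KO held both the lowest and the highest of the 10 libraries.

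The members tended to be high or low together within a library. In KO 12, 27 of 34 were above their own mean over the 10 libraries, against 6 in KO 6 and 10 in KO 9. In Het 8, 32 of 34 were above it, against 20 in Het 5 and 11 in Het 11. In WT 10, 24 were above it, against 20 in WT 1, 10 in WT 4 and 12 in WT 7. Over all genes tested, the share above the mean stayed between 42.8% and 55.8% in the 10 libraries, while for the members it ran from 17.6% to 94.1%.

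Het 8 was the highest of the 10 libraries for 17 of the 34 members, and for 9.64% of all genes. KO 6 was the lowest for 13 of the 34, against 11.2% of all genes and 18.6% of the 1000 most abundant. WT 4 was the lowest for 8 members, but also for 24.4% of all genes. The median deviation of the members from their means, in log2 units, was -0.33 in KO 6, -0.07 in KO 9 and 0.20 in KO 12. It was 0.07 in Het 5, 0.29 in Het 8 and -0.07 in Het 11, and 0.04, -0.15, -0.06 and 0.16 in WT 1, 4, 7 and 10. Each genotype thus had libraries on both sides. The members together made up 4.81% of the summed RPKM in KO 6 and 6.87% in Het 8, the lowest and highest shares. KO 6 and Het 8 are the libraries with the highest neutrophil and choroid plexus marker sums given above. The 8 border macrophage markers, all of which passed the filter and none of which was at 0 in every library, summed to 141, 196 and 232 RPKM in KO 6, 9 and 12, to 212, 236 and 158 RPKM in Het 5, 8 and 11, and to 197, 126, 161 and 195 RPKM in WT 1, 4, 7 and 10. That sum was highest in Het 8 and KO 12, where the members' median deviation was also highest, and lowest in WT 4 and KO 6, where it was lowest. The microglia marker sum was lowest in Het 8 (10023 RPKM) and highest in WT 4 (12253) and KO 6 (12247). The part of any of these markers in the pattern was not tested.

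The heat shock members went with the other roles in some libraries and not in others. Their median deviation was 0.37 in Het 5, where the other 5 roles stood between -0.07 and 0.10. In Het 11 it was -0.47, where the MAP kinase phosphatases (-0.27), the AP-1 subunits (-0.22) and the zinc finger factors and nuclear receptors (-0.09) were also below 0, and the RNA decay factors (0.11) and other early response genes (0.09) above it. In KO 6 the heat shock members were at 0.18, while the AP-1 subunits were at -0.43, the zinc finger factors and nuclear receptors at -0.42 and the 19 other heat shock genes, which are not members, at -0.12. In Het 8 all 6 roles were above 0, from 0.11 for the MAP kinase phosphatases to 0.53 for the zinc finger factors and nuclear receptors.

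**Figure D2:**
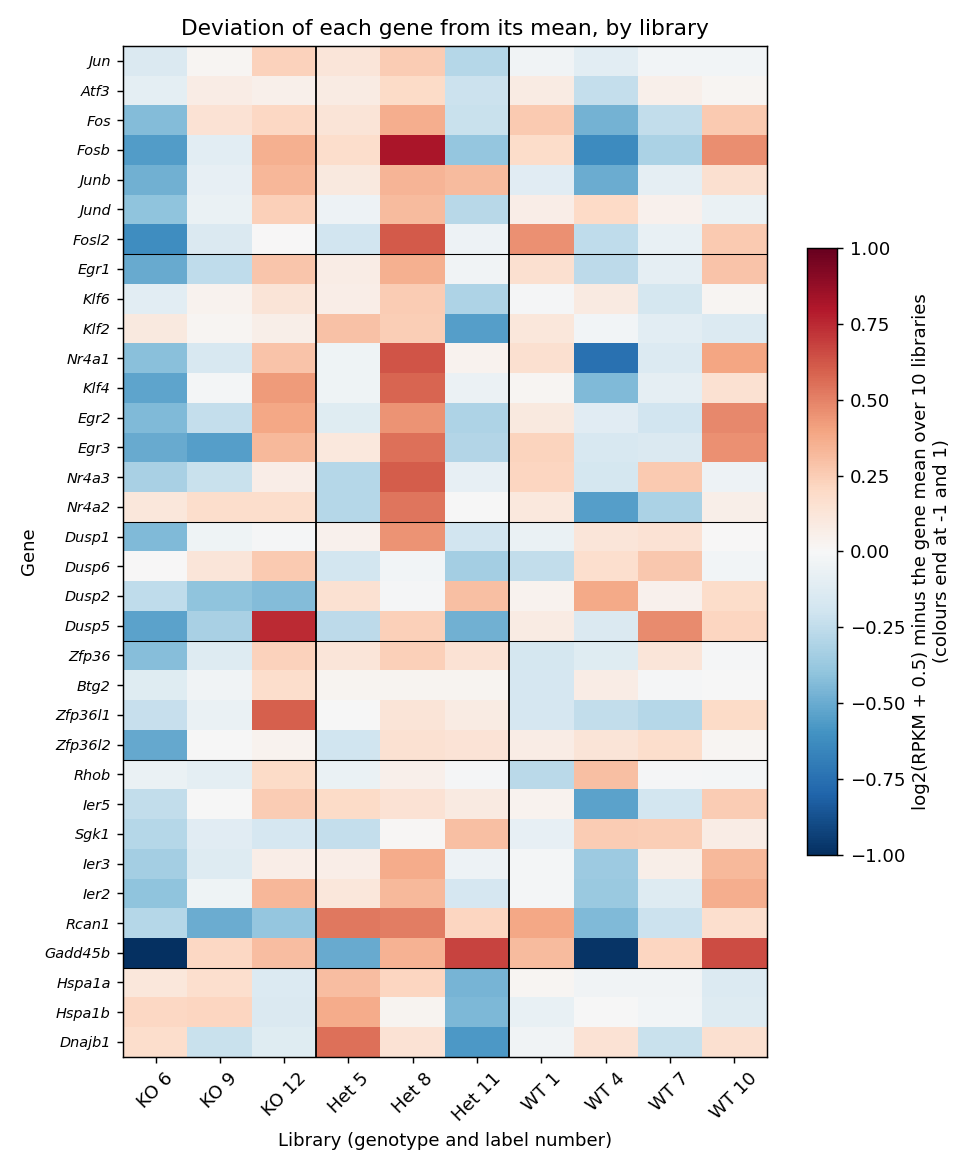
Deviation of each of the 34 genes from its mean over the 10 libraries, in log2 units, with genes in rows by role and libraries in columns as KO, Het and WT; colours end at -1 and 1. Het 8 is above the mean for 32 genes and KO 6 for 6, and the heat shock genes at the bottom are high in Het 5 and low in Het 11.

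Lists of related genes that are not members were read the same way. The list of 37 other early response genes, with 34 tested, had a median deviation of 0.21 in Het 8, where 28 of 34 were above their mean. It was at -0.17 in both KO 6 and WT 4, at 0.03 in WT 10 and at 0.06 in KO 12. The 19 other heat shock genes had 16 above their mean in Het 8 and 3 in Het 11, with medians of 0.13 and -0.15, and 5 above it in KO 6, with a median of -0.12. The 29 genes that signal to early genes (Ras, MAP kinases, CREB, SRF and their cofactors) stayed between -0.05 and 0.04 in every library. The 13 cytokines and mediators linked to activation outside the body were at 0.21 in Het 8 and 0.26 in WT 10, with 11 and 9 of 13 above their mean. In KO 6 and KO 12 they were at -0.18 and -0.11, with 3 and 5 of 13 above it. The 16 tested AP-1 and bZIP partners were at 0.02 in Het 8 and -0.08 in KO 6, with 8 and 5 above their mean. The 11 other feedback phosphatases and inhibitors were at 0.21 and -0.07 in these libraries, with 8 and 3 above their mean.

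Between KO and WT, the members' differences centred near 0. Dusp2 was the member most apart and was lower in KO (log2 difference of -0.51). Next among the lower members came Fosl2 (-0.37), Egr3 (-0.35) and Sgk1 (-0.33). The largest differences upward were those of Nr4a2 (0.33) and Zfp36l1 (0.22). By limma on log2(RPKM + 0.5), with genotype and sex in the model and Benjamini-Hochberg adjustment over all genes, 0 of 34 members passed an adjusted p of 0.05, against 0.00734% of all genes, which is Trem2 alone; limma-voom on the recovered reads also called 0 members. At an unadjusted p under 0.05, 3 members were lower (8.82%; Dusp2, Zfp36l2 and Sgk1) and 0 higher, against 1.81% of all genes lower and 3.32% higher. The KO and WT libraries did not overlap for Dusp2 and Sgk1, which were lower in KO (5.88%, against 1.6% of all genes), nor for Nr4a2, which was higher in KO (2.94%, against 2.99%). Nr4a2 had 9.68, 10.1 and 10.2 RPKM in KO, 7.22, 13.1 and 8.89 RPKM in Het, and 9.64, 5.92, 7.07 and 9.28 RPKM in WT, so that its KO libraries lay just above the highest WT library. The median log2 difference of the members was -0.04, with a range of -0.51 to 0.33, against 0.03 over all genes. It was positive for 14 of 34, against 57.2% of all genes. The median was 0.03 without KO 6 and -0.19 without KO 12 or without WT 4. With the library medians set equal, 7 of 34 were positive, and the median was -0.09, against -0.03 over all genes. The share of all genes that was positive under that setting was not computed.

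Dusp2 encodes a nuclear phosphatase of immune cells that inactivates ERK and p38, and lies at chr2:127336159-127338376 (GRCm38, plus strand). It had 10.8, 9.66 and 9.45 RPKM in KO 6, 9 and 12, 14.5, 12.8 and 16.0 RPKM in Het 5, 8 and 11, and 13.3, 17.0, 13.4 and 14.7 RPKM in WT 1, 4, 7 and 10. The 3 KO libraries were below all 7 others. The KO minus WT log2 difference was -0.51 (SE 0.13; 95% interval -0.79 to -0.24; unadjusted p = 0.0018, adjusted p = 0.913 by limma), or 68.3% of the WT level. It was -0.56 without KO 6, the library with the highest neutrophil marker sum, and -0.40 without WT 4, the library with the highest Dusp2 value.

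Sgk1, a kinase induced by serum and glucocorticoids, lies at chr10:21882184-21999903 (plus strand). It had 294, 332 and 319 RPKM in KO, 303, 361 and 441 RPKM in Het, and 338, 426, 425 and 378 RPKM in WT. The highest KO library was just below the lowest WT library, and Het spanned both groups. The KO minus WT log2 difference was -0.33 (SE 0.13; unadjusted p = 0.0256, adjusted p = 0.942 by limma).

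Zfp36l2, a relative of Zfp36 that also binds AU-rich mRNA elements, lies at chr17:84183931-84187947 (minus strand). It had 49.8, 71.0 and 72.8 RPKM in KO, 61.8, 79.0 and 78.0 RPKM in Het, and 74.9, 77.9, 80.3 and 72.1 RPKM in WT. KO 6 was the lowest of all, and KO 12 lay inside the WT range. The KO minus WT log2 difference was -0.30 (SE 0.11; unadjusted p = 0.0216, adjusted p = 0.942 by limma), and it was -0.15 without KO 6. The 4 RNA decay factors ran from -0.30 to 0.22.

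By role, the median KO minus WT log2 difference was 0.02 for the 7 AP-1 subunits, -0.02 for the 9 zinc finger factors and nuclear receptors, and -0.27 for the 4 MAP kinase phosphatases. It was -0.04 for the 4 RNA decay factors, -0.15 for the 7 other early response genes and 0.09 for the 3 heat shock genes. For the best-known members the intervals allow differences of either sign: the 95% interval of the KO minus WT log2 difference was -0.48 to 0.52 for Fos, -0.66 to 0.27 for Egr1 and -0.24 to 0.36 for Jun. In bulk RNA, fewer cells with a transcript and less of it per cell cannot be told apart.

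**Figure D3:**
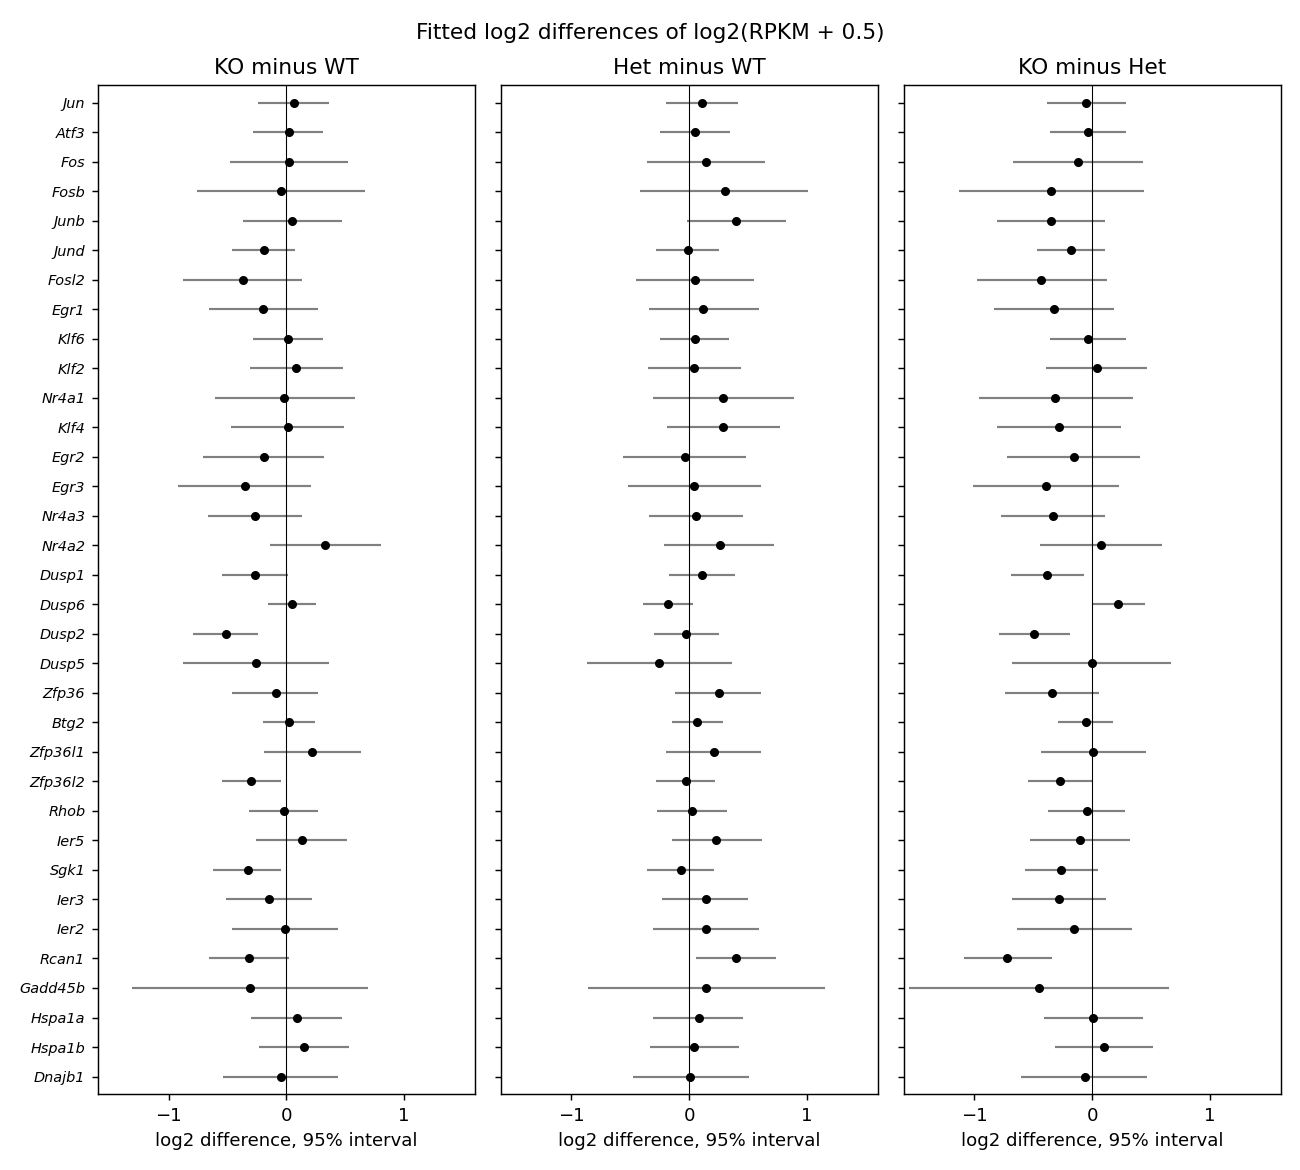
Fitted log2 differences of the 34 genes with 95% intervals, in panels for KO minus WT, Het minus WT and KO minus Het, grouped by role. Most intervals cross 0; those of Dusp2, Sgk1 and Zfp36l2 lie below 0 in KO minus WT, and Gadd45b has the widest interval.

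Between Het and WT, 0 of 34 members passed the adjusted threshold, as did 0.0% of all genes (limma, Benjamini-Hochberg). At an unadjusted p under 0.05, 1 member was higher in Het (2.94%; Rcan1) and 0 lower, against 1.4% of all genes higher and 1.35% lower. The libraries did not overlap for Zfp36, which was higher in Het (2.94%, against 2.23% of all genes), and overlapped for every other member, while 2.3% of all genes were lower in Het without overlap. The members' median log2 difference was 0.07, with a range of -0.26 to 0.40, against 0.00 over all genes, and it was positive for 27 of 34, against 50.3% of all genes. Without Het 8 the median was -0.02 and 15 of 34 were positive. Without Het 11 the median was 0.21.

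Between KO and Het, 0 of 34 members passed the adjusted threshold, against 0.00734% of all genes, again Trem2 (limma, Benjamini-Hochberg). At an unadjusted p under 0.05, 3 members were lower in KO (8.82%; Rcan1, Dusp2 and Dusp1) and 0 higher, against 1.15% of all genes lower and 2.2% higher. The libraries did not overlap for Dusp2 and Rcan1, which were lower in KO (5.88%, against 3.02% of all genes), nor for Dusp6, an ERK phosphatase that was higher in KO (2.94%, against 4.4%). The median log2 difference was -0.17, with a range of -0.72 to 0.22, against 0.03 over all genes, and 6 of 34 were positive, against 57.1% of all genes. This rested on single libraries: the median was -0.03 without Het 8, with 16 of 34 positive, and -0.03 without KO 6, with 12 of 34 positive. KO minus WT and KO minus Het share the KO libraries, and KO minus WT and Het minus WT share the WT libraries.

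Rcan1, an inhibitor of the phosphatase calcineurin that is itself induced by calcineurin and NFAT, lies at chr16:92391953-92470867 (minus strand). It had 38.4, 33.1 and 35.7 RPKM in KO, 67.6, 67.2 and 54.6 RPKM in Het, and 61.5, 34.3, 40.4 and 52.7 RPKM in WT. The Het libraries were all above the KO libraries, and WT covered the range between them. The KO minus Het log2 difference was -0.72 (SE 0.17; 95% interval -1.09 to -0.34; unadjusted p = 0.00144, adjusted p = 0.999 by limma), or 56.7% of the Het level, and it was -0.47 without Het 8. The Het minus WT log2 difference was 0.40 (SE 0.16; unadjusted p = 0.0261, adjusted p = 1.0 by limma), and it was 0.18 without Het 8.

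Dusp1, at chr17:26505590-26562128 (minus strand), had 1303, 1717 and 1756 RPKM in KO, 1821, 2422 and 1546 RPKM in Het, and 1687, 1924, 1956 and 1776 RPKM in WT. KO 6 was lowest and Het 8 highest, and the other 8 libraries lay between 1546 and 1956 RPKM. The KO minus Het log2 difference was -0.38 (SE 0.14; unadjusted p = 0.0201, adjusted p = 0.999 by limma). For Dusp2, the KO minus Het log2 difference was -0.49 (SE 0.14; unadjusted p = 0.00457, adjusted p = 0.999 by limma). The annotated span of Dusp1 overlaps Ergic1 on the other strand, and 11 of the 34 members overlap some annotated gene. The labels do not tell whether reads were counted by strand.

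**Figure D4:**
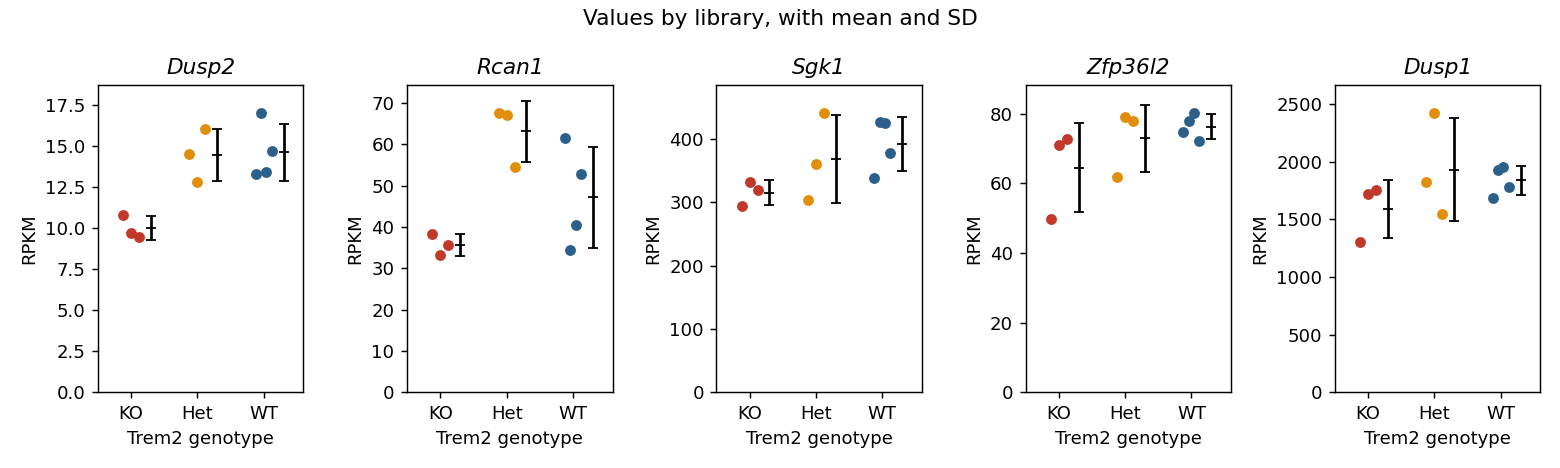
RPKM per library of Dusp2, Rcan1, Sgk1, Zfp36l2 and Dusp1 in KO, Het and WT, each axis from 0; points are libraries, and the bar is the mean with its SD. Dusp2 is at 9.45 to 10.8 RPKM in KO, below every Het and WT library, and Rcan1 at 33.1 to 38.4 RPKM in KO, below every Het library but not below every WT library.

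Differences were also taken within classes of depth, because 4 libraries had over 30 M reads and 6 had fewer. The labels name no batch. The deeper libraries are those with label numbers 9 to 12, so depth cannot be told apart from label order. Among the deeper libraries (2 KO, 1 Het, 1 WT) the members' median log2 difference was -0.03 for KO minus WT, 0.18 for KO minus Het and -0.24 for Het minus WT. Among the shallower libraries (1 KO, 2 Het, 3 WT) it was -0.24 for KO minus WT, -0.50 for KO minus Het and 0.24 for Het minus WT. The KO minus Het and Het minus WT medians thus had opposite signs in the 2 depth classes: 26 of 34 members were positive for KO minus Het in the deeper class and 1 of 34 in the shallower class. These values have no test, since a class holds as few as 1 library of a genotype. They are differences of means without the sex term. In the deeper class KO 9 and KO 12 are male, while Het 11 and WT 10 are female. Differences of KO from Het or WT there cannot be told apart from sex. In the shallower class the only KO library, KO 6, is female, while Het and WT hold both sexes. Differences of KO in that class may thus also carry sex. For Dusp2, KO minus WT was -0.60 in the deeper class and -0.41 in the shallower class, and KO minus Het was -0.72 and -0.32. For Rcan1, KO minus Het was -0.66 and -0.80, and Het minus WT was 0.05 and 0.61. For Sgk1, KO minus WT was -0.21 and -0.42. Those 3 genes kept their sign in both classes. Zfp36l2 was at 0.00 and -0.63 for KO minus WT, and Dusp1 at 0.17 and -0.69 for KO minus Het, so neither was lower in KO in both classes. In the model with the sex term, the Dusp1 difference was -0.38 with all libraries. It was -0.33 without KO 6 and -0.26 without Het 8.

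Female and male libraries were compared in the same model. Again 0 of 34 members passed the adjusted threshold, against 0.044% of all genes (limma, Benjamini-Hochberg). At an unadjusted p under 0.05, 4 members were lower in females (11.8%; Dusp6, Jund, Dusp1 and Zfp36l2) and 0 higher, against 1.83% of all genes lower and 3.51% higher. The 5 female and 5 male libraries overlapped for all 34 members, while 0.565% of all genes were higher and 0.338% lower in females without overlap. The median female minus male log2 difference was -0.09, against 0.03 over all genes, and 5 of 34 were positive, against 56.7% of all genes. Without Het 8, a male library, the median was 0.01 and 18 of 34 were positive. Without KO 6, a female library, 16 of 34 were positive.

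Dusp6 had 77.5, 68.2, 60.9, 65.0 and 75.7 RPKM in the female libraries KO 6, Het 5, Het 11, WT 1 and WT 10, against 84.2, 93.0, 75.6, 86.9 and 93.4 RPKM in the male libraries KO 9, KO 12, Het 8, WT 4 and WT 7. The female minus male log2 difference was -0.27 (unadjusted p = 0.00584, adjusted p = 0.919 by limma). Only Het 8 among males was below the highest female library. Jund, an AP-1 subunit that is less inducible than Jun, had 48.3, 61.7, 52.7, 67.3 and 61.2 RPKM in the female libraries, against 61.2, 75.6, 79.9, 73.8 and 66.0 RPKM in the male libraries. That is 58.2 ± 7.60 RPKM in females and 71.3 ± 7.54 in males (SD, n = 5 each), a log2 difference of -0.33 (SE 0.10), with overlap. Dusp1 averaged 1626 ± 209 RPKM in females and 1955 ± 281 in males (log2 difference -0.34). Zfp36l2 averaged 67.3 ± 11.5 RPKM in females and 76.2 ± 4.07 in males (log2 difference -0.25), and this difference was -0.14 without KO 6.

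None of the 6 lists of related genes held a gene that passed the adjusted threshold in any of the genotype comparisons or between sexes (limma; a gene is called at an adjusted p under 0.05). In KO against WT, unadjusted p-values under 0.05 were found for 1 gene higher and 1 lower of 16 tested AP-1 and bZIP partners, and for 1 higher and 2 lower of 34 other early response genes. The cytokine list had 0 higher and 2 lower of 13, the other heat shock genes had 1 higher and 0 lower of 19, and the signalling genes (29) and feedback inhibitors (11) had 0. The medians of the log2 differences were -0.06, -0.06, -0.17, -0.01, -0.02 and -0.05 in that order of lists, against 0.03 over all genes.

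Maff, a small Maf protein that pairs with other bZIP factors, averaged 37.6 ± 2.32 RPKM in KO, 51.9 ± 5.24 in Het and 51.2 ± 5.98 in WT, with a KO minus WT log2 difference of -0.43 (SE 0.12; adjusted p = 0.913 by limma). Its KO libraries, at 35.9 to 40.3 RPKM, were below those of both other genotypes. Batf3, an AP-1 partner needed by cross-presenting dendritic cells, averaged 11.2 ± 1.17 RPKM in KO, 9.28 ± 1.79 in Het and 7.60 ± 1.65 in WT (KO minus WT log2 difference 0.54). Nfkbia, the inhibitor of NF-kB that NF-kB induces, averaged 223 ± 38.5 RPKM in KO, 273 ± 36.4 in Het and 294 ± 24.7 in WT (-0.42, adjusted p = 0.937 by limma). Gadd45g, a relative of Gadd45b, averaged 37.4 ± 3.69 RPKM in KO, 31.6 ± 0.277 in Het and 30.4 ± 2.51 in WT (log2 difference 0.29). Differences of both signs were thus among these genes, and none passed the adjusted threshold.

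Among the cytokines, Osm averaged 41.8 ± 2.37 RPKM in KO, 44.6 ± 7.70 in Het and 50.5 ± 7.57 in WT (KO minus WT log2 difference -0.31). Csf1, a growth factor of microglia, averaged 52.5 ± 4.12 RPKM in KO, 69.4 ± 12.8 in Het and 81.0 ± 23.6 in WT (log2 difference -0.55, adjusted p = 0.963 by limma). The most abundant of that list, the chemokine Ccl3, averaged 1600 ± 228 RPKM in KO, 1604 ± 227 in Het and 1630 ± 39.1 in WT, a difference of less than the spread between libraries. The kinase Mapk3 (ERK1) averaged 69.4 ± 9.28 RPKM in KO, 70.3 ± 6.62 in Het and 69.4 ± 7.66 in WT. Hsp90ab1, the most abundant of the other heat shock genes, averaged 614 ± 38.1 RPKM in KO, 628 ± 100 in Het and 582 ± 82.0 in WT. Dusp7, the most abundant of the other feedback phosphatases, averaged 65.0 ± 10.5 RPKM in KO, 47.5 ± 6.21 in Het and 55.3 ± 11.2 in WT, with a KO minus WT log2 difference of 0.19.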

How the data were processed

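RNA of CD11b-isolated microglia was amplified with an Ovation RNA-seq system and sequenced on an Illumina HiSeq, per the labels' protocols. The deposited values are RPKM made by the authors, 1 per gene and library. The submitters' processing notes name STAR, HTSeq, edgeR and limma, with build mm10; their order, versions and gene annotation were not given in the sources used here.

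Of 24060 names per file, 27 that had become dates were left out. Whole reads were recovered for all 19983 genes above 0, within 0.0005 reads or a relative 3e-08, and their sums give the depth. RPKM were not treated as counts: log2(RPKM + 0.5) of the 13621 genes with at least 0.5 RPKM in 3 libraries was fitted with limma 3.58.1 (trend) in R 4.3.3, with genotype and sex as terms, all 10 libraries and Benjamini-Hochberg adjustment over all genes. Tests were two-sided with a threshold of 0.05. The step was also run on simulated reads, with the same spread for every gene and no effect shared within a library. That run does not tell how well differences of the members would be found, since their spread was wider and partly shared within libraries. log2 differences understate changes of low genes. Coordinates are from GENCODE M21, whose genes may not be those the authors counted. Tables were made with Python 3.11.15 and pandas 2.3.3.

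The members and lists were chosen with earlier results of these data known. Values in every library are given for members with an unadjusted p under 0.05 between genotypes, the 5 with the largest residual SD, the 5 with the highest mean RPKM and the first of each role. In the lists, the 2 highest and the 2 of smallest p in KO against WT were eligible to be named. Other members are given by their means, and Nr4a2, Jund and Dusp6 by library after their values were seen. Alternatives were other pseudocounts, filters and scalings, no sex term, sample quality weights, limma-voom on the recovered reads, leaving out each library and depth class as a covariate.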

Additional observations from a re-analysis of the deposited data

Results flagged for a closer look

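Jun in WT had 1 library far from the others. WT 4 was at 1116 RPKM, against 1173, 1175 and 1178 RPKM in WT 1, 10 and 7, and the gap below the nearest library was 0.925 of the whole range, above Dixon's 95% critical value of 0.829 for 4 values. The absolute gap is small beside the ranges of 1085 to 1409 RPKM in KO and 986 to 1432 RPKM in Het. It was the only one of the 34 members set apart in this way in WT, where chance sets apart about 1 in 20 groups; the KO and Het groups, of 3 libraries each, were not checked.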

How the results depend on the processing

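Under 19 other settings, 0 of 34 members passed the adjusted threshold in any genotype comparison, and the same held for the 18 other settings of the sex comparison. Among the 11 member tests with an unadjusted p under 0.05, the sign of the log2 difference was kept under all these settings; the lowest adjusted p was 0.423, for Dusp2 in KO against WT. Over all genes, KO against WT called 1 gene, Trem2, and 2 with limma-voom on the recovered reads (Trem2 and Treml2), 2 with sample quality weights (Trem2 and Treml2) and 2 with depth class as a covariate (Trem2 and Camp), a setting chosen after seeing the data. Leaving out each library in turn gave 1 to 3 genes, with 3 without KO 6 (Trem2, Treml2 and Mir5104). The cause was not tested. The members' median log2 difference ran from -0.19 to 0.03 for KO minus WT, from -0.31 (without KO 12) to -0.03 for KO minus Het, from -0.02 to 0.21 for Het minus WT and from -0.19 (without WT 4) to 0.01 for female minus male. With no sex term, 10 of 34 members were positive for KO minus Het, and with sample quality weights 8 were positive for KO minus WT and 12 for female minus male. The median residual SD of the members ran from 0.24 to 0.30; it was not computed under the weighted fits. No paired analysis was possible because the groups share no replicate numbers in the labels. From 4 on those numbers run WT, Het, KO in turn; the labels do not say that such runs were prepared together, and no block was fitted on that order. With 3 or 4 libraries a genotype, intervals are wide; Dusp5 had the fewest reads, 37 in its lowest library.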
